A study of Mus musculus with 19 samples.

Results

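The leukocyte marker genes are 31 genes whose messenger RNA is largely made by blood-derived immune cells. They were followed here in whole kidneys of control mice and of mice with a Cre directed at tubule epithelium. That Cre targets the DNA methyltransferase genes Dnmt3a and Dnmt3b. The members were taken from a fixed list of symbols: 2 pan-leukocyte genes, 16 myeloid genes and 13 lymphoid genes. Values were read for 28 of them, among 54146 gene identifiers listed in each library: both pan-leukocyte genes, 13 myeloid genes and all 13 lymphoid genes. Adgre1, Csf1r and Cd14 are not analysed here. Of the 28, 19 reached a mean of 1 TPM over all 5 libraries and entered the test, 2 pan-leukocyte, 10 myeloid and 7 lymphoid.

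The kidneys came from mice of strain B6C3F1/J at postnatal day 21, an age of 3 weeks, and messenger RNA was selected by its poly(A) tail. The control group held 3 libraries of genotype Dnmt3ab f/f, with floxed Dnmt3a and Dnmt3b and no Cre named. The KspCre DKO group held 2 libraries of genotype KspCre Dnmt3ab f/f, the same floxed alleles with a Cre driven by the Ksp-cadherin (Cdh16) promoter, so both groups carry the floxed genes. That promoter is active in kidney tubule epithelium and not in leukocytes, so the immune cells of these animals are not the cells in which Cre is meant to act. The labels do not say that libraries of 1 group came from separate animals, and p-values therefore measure only the spread between these libraries. The bisulfite samples of the series are not analysed here.

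Leukocytes reach the kidney as resident cells and with the blood. Resident macrophages are the most abundant of them in a healthy kidney, where they lie around the tubules, take up debris and make complement component C1q. B cells and T cells carry antigen receptors whose chains reach the surface only together with signalling partners, CD79 for the B cell receptor and CD3 for the T cell receptor. In RNA from a whole organ, fewer cells of a type and less RNA per cell cannot be told apart.

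KspCre DKO replicate 2 stood apart from the other libraries before any member was considered. It listed 14710 genes above 0 TPM, against 18488 to 20510 in the others, and mitochondrially encoded genes made up 30.98% of its TPM, against 18.2% to 23.2%. The targeted genes did not separate the groups in whole kidney. Dnmt3a stood at 13.2, 19.0 and 15.5 TPM across the controls, against 9.98 and 14.2 TPM in KspCre DKO, and Dnmt3b at 1.82, 2.86 and 1.98 TPM against 2.29 and 3.25 TPM. Control values are given throughout in the order of replicates 1, 2 and 3, and KspCre DKO values in the order of replicates 1 and 2. TPM carry no read number, so sequencing depth is not known for any library. Among members listed at 0 in a library, an exact 0 may be a failed estimate and not a measured absence.

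In the control kidneys the myeloid members were the more abundant class. The median of their control means was 8.18 TPM over 13 genes, against 1.21 TPM over the 13 lymphoid members, and the 7 members of highest control mean were all myeloid. Lyz2 led with 21.6 ± 7.88 TPM (SD, n = 3), followed by C1qb at 18.9 ± 7.09 TPM, Fcer1g at 16.2 ± 7.44 TPM, Tyrobp at 15.9 ± 6.32 TPM and C1qa at 15.0 ± 6.77 TPM. Neighbours in that order lie within each other's spread, so the order among these genes is not resolved. The lowest members were Ms4a1, between 0.06 and 0.08 TPM in the controls, and Cd3e, between 0.07 and 0.32 TPM.

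**Figure D1:**
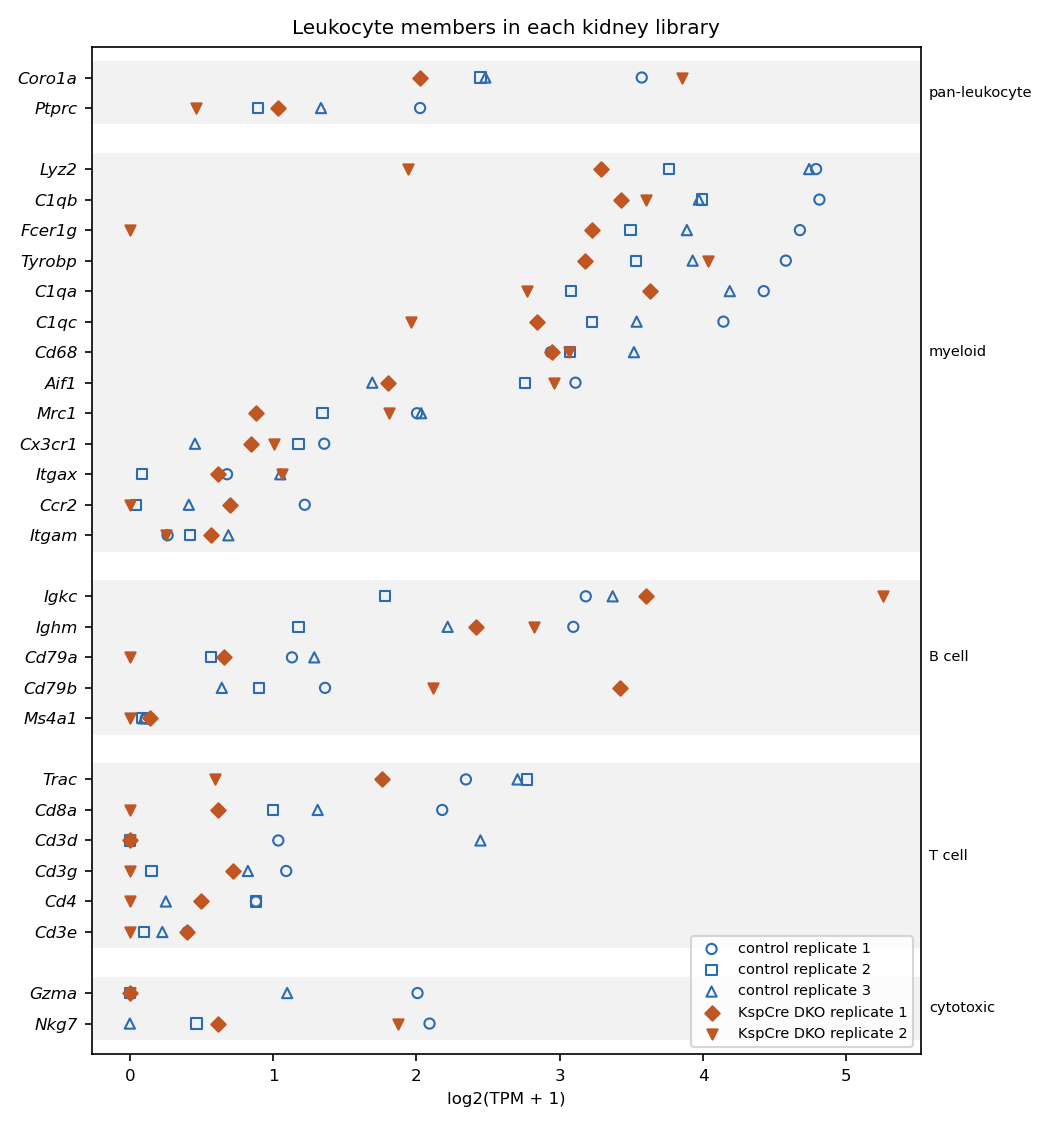
Each row is 1 of the 28 members, grouped by cell class and ordered by control mean, and each symbol is 1 library, on a log2(TPM + 1) scale; open blue symbols are the 3 controls and filled orange symbols the 2 KspCre DKO libraries. Lyz2, C1qb, C1qc, Fcer1g, Trac and Cd8a have both KspCre DKO libraries to the left of all controls, and Cd79b and Igkc have both to the right. KspCre DKO replicate 2 sits at 0 for 10 members.

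The controls themselves spread widely. Control replicate 1 held the highest control value for 20 of the 28 members, and control replicate 2 the lowest for 19. Their summed TPM over all members was 208.9 in control replicate 1, 99.1 in control replicate 2 and 149.2 in control replicate 3. In KspCre DKO the same sum was 99.7 in replicate 1 and 120.6 in replicate 2, inside the range of the controls.

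No member passed the test between the groups. By limma on log2(TPM + 1), with Benjamini-Hochberg adjustment over 13963 genes and a threshold of 0.05, 0 of the 19 tested members were called, against 23 of 13963 genes, or 0.165%. Those 23 were 14 higher and 9 lower, a split that was 35 and 7 after quantile normalization and 24 and 7 with median-of-ratios scaling. At an unadjusted p below 0.05, 5 members lay lower in KspCre DKO (Lyz2, Trac, C1qc, Fcer1g and Cd8a), where 6.15% of all tested genes did, and 2 lay higher (Cd79b and Igkc), where 4.16% did. The 2 groups did not overlap for 6 tested members on the lower side, where 15.6% of all tested genes did so, and for 2 on the higher side, where 10.5% did. With KspCre DKO replicate 1 left out, Fcer1g and Trac were called lower, 2 of 20 members tested there, where 3.39% of all tested genes were called lower. That fit rests on the single library that stood apart. The median difference of all tested genes was -0.14 on the log2 scale, against -0.57 over the 10 tested myeloid and 0.39 over the 7 tested lymphoid members. With the members below 1 TPM included it was -0.41 over 13 myeloid and -0.33 over 13 lymphoid members, so the lymphoid sign depended on which members were counted. Cd3d and Gzma were listed at 0 in both KspCre DKO libraries, and without those 2 genes the median over the other 11 lymphoid members was -0.04.

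**Figure D2:**
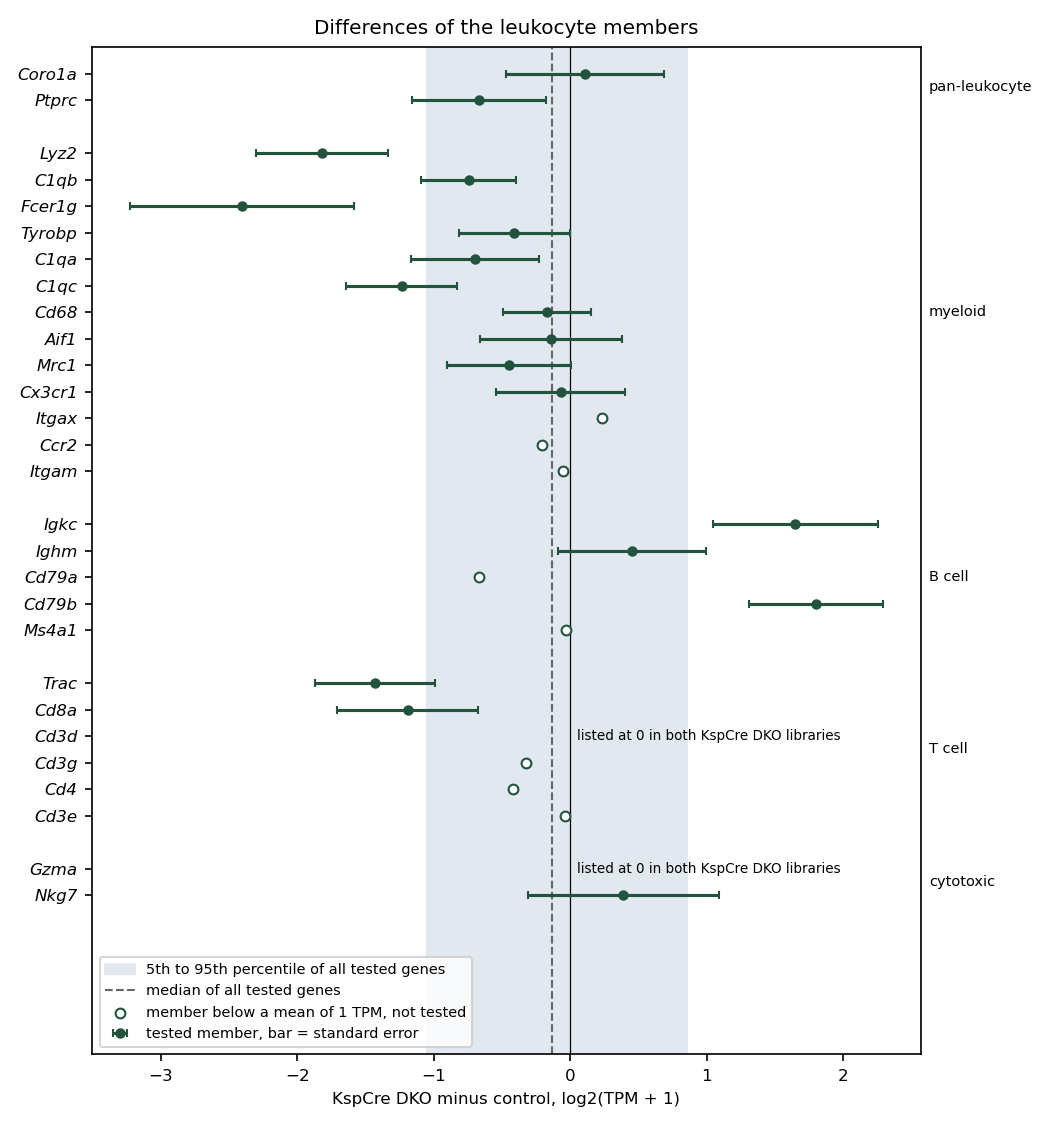
Points give the difference between KspCre DKO and control on the log2(TPM + 1) scale for each member, with bars of 1 standard error for tested members, open points for members below a mean of 1 TPM, and a grey band from the 5th to the 95th percentile of all tested genes (-1.05 to 0.86). Of the members drawn, Lyz2, Fcer1g, C1qc, Trac and Cd8a lie to the left of the band and Cd79b and Igkc to the right; Cd3d and Gzma, listed at 0 in both KspCre DKO libraries, have no point, and none of the 19 tested members was called.

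Among the myeloid members, C1qa, C1qb and C1qc encode the 3 chains of C1q, the recognition molecule of the classical complement pathway, which macrophages produce. They are neighbours on chromosome 4, at chr4:136895916-136898844, chr4:136880126-136886200 and chr4:136889801-136892936 (GRCm38.p6), with 3601 bases between C1qb and C1qc and 2980 between C1qc and C1qa. Because the 3 genes lie together and Lyz2 showed the smallest p of the members, the 200 bases upstream of the start sites of C1qb, C1qc and Lyz2 are shown from RefSeq, 5′ to 3′ on the gene's own strand, at chr4:136886201-136886400, chr4:136892915-136893114 and chr10:117282273-117282472, all on the minus strand of GRCm38.p6. The C1qc window is counted from a start site inside the gene's outer limit, so its last 22 bases lie within the span given above. Capitals mark GAGGAA, a purine-rich box of the type bound by the myeloid factor PU.1, and TGTGGT, of the type bound by Runx factors, on either strand.
C1qb: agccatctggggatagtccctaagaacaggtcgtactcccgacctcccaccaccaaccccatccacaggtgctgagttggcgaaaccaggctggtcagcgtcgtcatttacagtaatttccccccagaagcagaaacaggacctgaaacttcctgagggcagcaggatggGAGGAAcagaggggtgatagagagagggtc
C1qc: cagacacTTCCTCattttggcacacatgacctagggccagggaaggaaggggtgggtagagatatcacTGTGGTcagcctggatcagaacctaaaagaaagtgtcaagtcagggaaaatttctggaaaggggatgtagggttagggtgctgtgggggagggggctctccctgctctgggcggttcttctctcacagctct
Lyz2: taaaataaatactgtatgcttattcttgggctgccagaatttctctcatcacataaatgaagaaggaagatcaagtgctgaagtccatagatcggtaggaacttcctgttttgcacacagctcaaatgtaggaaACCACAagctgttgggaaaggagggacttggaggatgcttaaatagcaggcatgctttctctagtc

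The box in C1qb begins 30 bases before the start site, and that in C1qc, on the opposite strand, 193 bases before it. Over windows from 250 bases before to 50 after the start, 12 of the 20 members with a window held GAGGAA on either strand, 6 of 11 myeloid and 5 of 7 lymphoid, against 28.3% of 32851 windows of all genes. TGTGGT stood in 7 of the 20, 5 myeloid and 2 lymphoid, against 16.8% of all windows. The letters are common, and a match is no evidence that a factor binds there.

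C1qc stood at 16.7, 8.34 and 10.6 TPM across the controls, against 6.15 and 2.90 TPM in KspCre DKO. Both KspCre DKO libraries lay below the lowest control, by -1.23 ± 0.41 (SE) on the log2 scale (limma adjusted p = 0.343). C1qb stood at 27.1, 14.9 and 14.7 TPM against 9.76 and 11.2 TPM. It too had no overlap, by -0.74 ± 0.35 (limma adjusted p = 0.517). C1qa stood at 20.5, 7.45 and 17.2 TPM against 11.4 and 5.81 TPM, and the groups overlapped because control replicate 2 was low. Summed over the 3 chains, C1q was 64.2, 30.7 and 42.5 TPM across the controls, against 27.3 and 19.9 TPM in KspCre DKO, a mean of 45.8 ± 17.0 (SD, n = 3) against 23.6 ± 5.25 (n = 2), without overlap.

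Lyz2, at chr10:117277541-117282272, encodes the lysozyme of macrophages and neutrophils. It stood at 26.6, 12.6 and 25.7 TPM across the controls, against 8.75 and 2.84 TPM in KspCre DKO, with every control above both KspCre DKO libraries. The difference was -1.82 ± 0.48 on the log2 scale, with the smallest p of any member and a limma adjusted p of 0.241. Leaving out KspCre DKO replicate 2 gave -1.14 and leaving out replicate 1 gave -2.49. The adjacent paralog Lyz1, the lysozyme of intestinal Paneth cells, with which reads could be shared, was at 0.19 TPM or below in all 5 libraries.

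Fcer1g, at chr1:171229572-171234349, and Tyrobp (also named DAP12) encode small membrane adaptors that pass on signals from activating receptors of myeloid and natural killer cells. Fcer1g stood at 24.6, 10.3 and 13.8 TPM across the controls, against 8.37 TPM in KspCre DKO replicate 1, and it was listed at 0 in KspCre DKO replicate 2. Its fitted difference of -2.40 ± 0.82 (limma adjusted p = 0.366) came largely from that 0, and was -0.79 without the library. Tyrobp stood at 22.9, 10.6 and 14.2 TPM against 8.02 and 15.4 TPM, so the groups overlapped. In the 4 libraries where both were above 0, Tyrobp over Fcer1g was 0.93, 1.03, 1.03 and 0.96, nearly 1 to 1. KspCre DKO replicate 2 broke that balance, with Tyrobp at 15.4 TPM and Fcer1g at 0.

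The other myeloid members overlapped between the groups. Cd68, a glycoprotein of macrophage lysosomes, was the steadiest, at 6.66, 7.42 and 10.5 TPM across the controls, against 6.71 and 7.37 TPM in KspCre DKO. Its difference was -0.17 ± 0.32 (limma adjusted p = 0.885). Aif1, which encodes the macrophage actin-binding protein IBA1, stood at 7.63, 5.75 and 2.23 TPM against 2.48 and 6.76 TPM. Mrc1, the mannose receptor of tissue-resident macrophages, stood at 3.01, 1.54 and 3.09 TPM against 0.84 and 2.50 TPM.

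The receptors that guide and anchor monocytes were low throughout. Cx3cr1, the fractalkine receptor of resident macrophages, stood at 1.56, 1.26 and 0.37 TPM against 0.80 and 1.0 TPM, and averaged 1 TPM. Ccr2, the chemokine receptor of inflammatory monocytes, stood at 1.33, 0.03 and 0.33 TPM against 0.62 and 0 TPM. Itgam, the integrin chain CD11b, stood at 0.20, 0.34 and 0.61 TPM against 0.48 and 0.19 TPM. Itgax, the chain CD11c, was the 1 myeloid member of 13 with a difference above 0 (3 of 13 after quantile normalization), at 0.60, 0.06 and 1.07 TPM against 0.53 and 1.09 TPM. None of these 4 separated the groups, and Ccr2, Itgam and Itgax stayed under the mean of 1 TPM that testing required.

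The 2 pan-leukocyte members did not point the same way. Ptprc, which encodes the surface phosphatase CD45, stood at 3.07, 0.86 and 1.52 TPM across the controls, against 1.05 and 0.38 TPM in KspCre DKO, a difference of -0.67 ± 0.49 (limma adjusted p = 0.676). Coro1a, an actin regulator of leukocytes, stood at 10.9, 4.45 and 4.58 TPM against 3.07 and 13.5 TPM. KspCre DKO held both its lowest and its highest value, and the difference of 0.11 ± 0.58 turned to -0.81 without KspCre DKO replicate 2.

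The B cell members split. Cd79a and Cd79b encode the partner chains through which the B cell receptor signals, and their values did not run together. Cd79b, at chr11:106311341-106314562, stood at 1.57, 0.87 and 0.56 TPM across the controls, against 9.71 and 3.34 TPM in KspCre DKO, both above every control. The difference was 1.80 ± 0.49 (limma adjusted p = 0.252), and it lay between 1.15 and 2.45 with any 1 library left out. Cd79a stood at 1.19, 0.48 and 1.44 TPM against 0.58 and 0 TPM. Cd79b over Cd79a was thus 1.32, 1.81 and 0.39 in the controls and 16.7 in KspCre DKO replicate 1, and no ratio could be formed in replicate 2. Scn4a, the gene 2983 bases from Cd79b, stood at 0, 0.02 and 0.11 TPM against 0.56 and 0.24 TPM, also without overlap but too low to test. Of other neighbours read, Smarcd2 stood at 27.9, 32.4 and 34.5 TPM against 34.7 and 21.7 TPM, with overlap. Tcam1 stood at 0.04, 0 and 0 TPM against 0.12 and 0.54 TPM, like Scn4a higher without overlap but too low to test. Gh was listed at 0 throughout. Whether the counting used strand is not given in the sources used here. Ms4a1, which encodes CD20 and marks mature B cells, was at 0.10 TPM or below in every library and listed at 0 in KspCre DKO replicate 2.

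Igkc, at chr6:70726435-70726754, encodes the constant part of the kappa light chain of antibodies. It stood at 8.07, 2.44 and 9.33 TPM across the controls, against 11.1 and 37.2 TPM in KspCre DKO. Both KspCre DKO values exceeded every control, replicate 1 narrowly and replicate 2 by far. The difference was 1.65 ± 0.60 (limma adjusted p = 0.397), and 0.82 without replicate 2. Ighm, the constant part of the mu heavy chain, stood at 7.54, 1.26 and 3.65 TPM against 4.33 and 6.07 TPM, so the groups overlapped. In the listed values, Igkc made up 22.6%, 18.3% and 32.4% of the summed lymphoid TPM in the controls, 36.2% in KspCre DKO replicate 1 and 74.7% in KspCre DKO replicate 2.

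The 6 T cell members all had a difference below 0, 5 of them listed at 0 in KspCre DKO replicate 2. Trac, at chr14:54220521-54224198, encodes the constant part of the T cell receptor alpha chain and was the exception. It stood at 4.08, 5.83 and 5.52 TPM across the controls, against 2.39 and 0.51 TPM in KspCre DKO, every control being higher. The difference was -1.43 ± 0.44 (limma adjusted p = 0.309) and -0.85 without KspCre DKO replicate 2. Cd8a, the co-receptor of cytotoxic T cells, stood at 3.53, 1.0 and 1.48 TPM against 0.53 and 0 TPM, without overlap, a difference of -1.19 ± 0.52 (limma adjusted p = 0.480). Cd4, the co-receptor of helper T cells and also made by some macrophages, stood at 0.84, 0.84 and 0.19 TPM against 0.41 and 0 TPM, with overlap.

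Cd3d, Cd3e and Cd3g, the CD3 chains that carry the T cell receptor's signal, lie together on chromosome 9. Cd3d stood at 1.05, 0 and 4.45 TPM across the controls, and both KspCre DKO libraries listed it at 0. Cd3g stood at 1.13, 0.11 and 0.77 TPM against 0.65 and 0 TPM. Cd3e stood at 0.32, 0.07 and 0.17 TPM against 0.32 and 0 TPM, so KspCre DKO replicate 1 equalled the highest control. For each of the 3 chains control replicate 2 was the lowest control and lay near 0, and the groups overlapped.

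The 2 cytotoxic members were erratic. Nkg7, a granule protein of natural killer and cytotoxic T cells, stood at 3.26, 0.38 and 0 TPM across the controls, against 0.53 and 2.65 TPM in KspCre DKO. Gzma, the protease granzyme A, stood at 3.02, 0 and 1.14 TPM and was listed at 0 in both KspCre DKO libraries. Control replicate 1 held the highest value of both genes.

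The 2 lineages differed in whether their sums overlapped between the groups. The 13 myeloid members together stood at 159.2, 80.5 and 114.3 TPM across the controls, against 64.9 and 57.0 TPM in KspCre DKO, 118.0 ± 39.5 (SD, n = 3) against 60.9 ± 5.57 (n = 2), without overlap. Of those 13 myeloid members, only 4 lay without overlap on their own, Lyz2, C1qb, C1qc and Fcer1g. Fcer1g was listed at 0 in KspCre DKO replicate 2. Abundant members weigh most in the sum, which therefore does not describe each of the 13. The 13 lymphoid members stood at 35.7, 13.3 and 28.8 TPM against 30.7 and 49.7 TPM, with overlap. Myeloid over lymphoid TPM was therefore 4.46, 6.03 and 3.97 in the controls and 2.12 and 1.15 in KspCre DKO. An exact permutation over 3 and 2 libraries makes 10 splits and cannot give a one-sided p below 0.1, and no other test was run on the sums.

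The sums of the B cell and T cell members lay on opposite sides of the controls. Sums of the wider B cell and T cell lists described below did not, but most genes of those lists were too low to test. B cell members summed to 18.5, 5.11 and 15.1 TPM across the controls, against 25.8 and 46.6 TPM in KspCre DKO, both above every control. T cell members summed to 10.95, 7.85 and 12.6 TPM against 4.30 and 0.51 TPM, both below every control. In KspCre DKO replicate 2 the T cell sum was Trac alone. The other 5 T cell members were listed at 0 there, as were many low genes of that library. The summed CD3 chains overlapped between the groups. The B cell sum came mostly from Cd79b and Igkc in KspCre DKO replicate 1 and on Igkc and Ighm in replicate 2. Without Igkc, Ighm and Cd79b, the remaining B cell members Cd79a and Ms4a1 summed to 1.27, 0.54 and 1.51 TPM against 0.68 and 0 TPM.

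The lower myeloid-to-lymphoid ratio did not hold without the antibody genes. With Igkc and Ighm left out it was 7.93, 8.35 and 7.24 in the controls, 4.26 in KspCre DKO replicate 1 and 8.77 in KspCre DKO replicate 2, the highest of all. By the mean over all 5 libraries, C1qb was the most abundant myeloid and Igkc the most abundant lymphoid member. With C1qb and Igkc left out, the ratio was 4.79, 6.02 and 5.13 against 2.82 and 3.65, again without overlap.

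**Figure D3:**
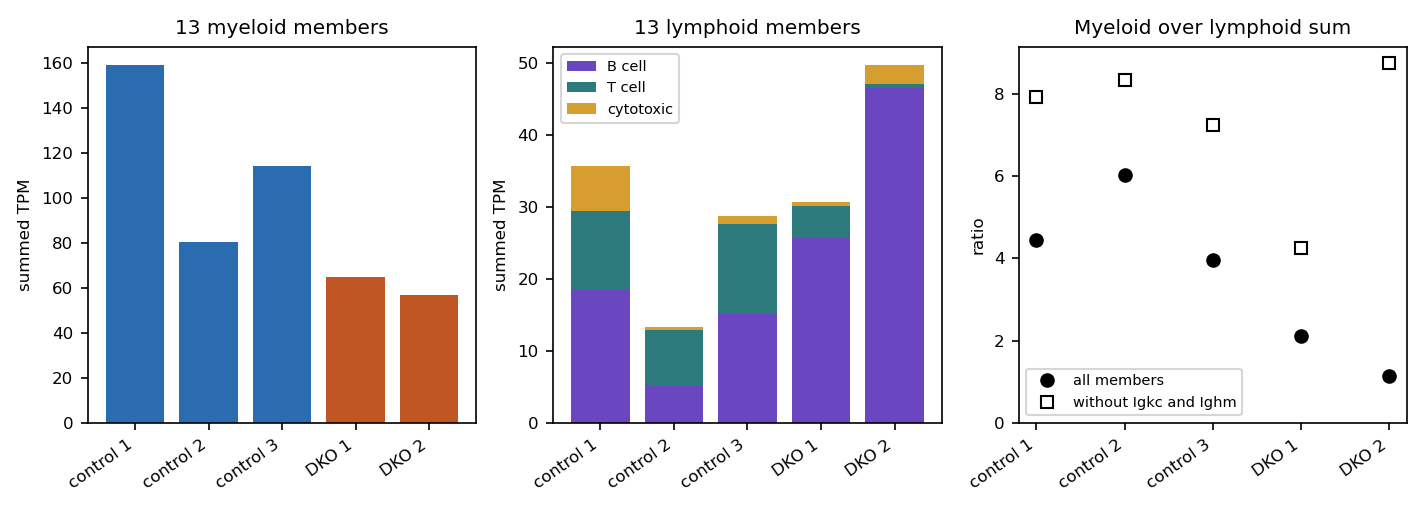
Bars give the summed TPM of the 13 myeloid members (left) and of the 13 lymphoid members stacked by B cell, T cell and cytotoxic genes (middle) in each library, labelled DKO for KspCre DKO, and points give the ratio of the 2 sums (right) with all members or without Igkc and Ighm. All 3 controls stand above both KspCre DKO libraries in the myeloid sum and in the ratio with all members, but without Igkc and Ighm KspCre DKO replicate 2 has the highest ratio, 8.77.

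Zeros fell mainly on lymphoid members and mainly in 1 library. Control replicate 1 listed none of the 28 members at 0, control replicate 2 listed Cd3d and Gzma, control replicate 3 listed Nkg7, and KspCre DKO replicate 1 listed Cd3d and Gzma. KspCre DKO replicate 2 listed 10: Ccr2 and Fcer1g of the 13 myeloid members, and Cd79a, Ms4a1, Cd3d, Cd3e, Cd3g, Cd4, Cd8a and Gzma of the 13 lymphoid members. The lymphoid members also lie lower, with 6 of 13 under a mean of 1 TPM against 3 of 13 myeloid members.

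That library lists many low genes at 0, members or not. Of all genes whose mean over the other 4 libraries lay from 0.5 to 1 TPM, 55.3% were at 0 in KspCre DKO replicate 2, beside 4 of 6 members. From 1 to 2 TPM the share was 35.9% of all genes, beside 3 of 5 members. In the other 4 libraries the share from 1 to 2 TPM was 3.12% to 6.83%. Fcer1g differed, since its mean over the other 4 libraries was 14.2 TPM. From 10 to 20 TPM only 26 of 2718 genes, 0.957%, were at 0 in KspCre DKO replicate 2, and Fcer1g was 1 of them.

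**Figure D4:**
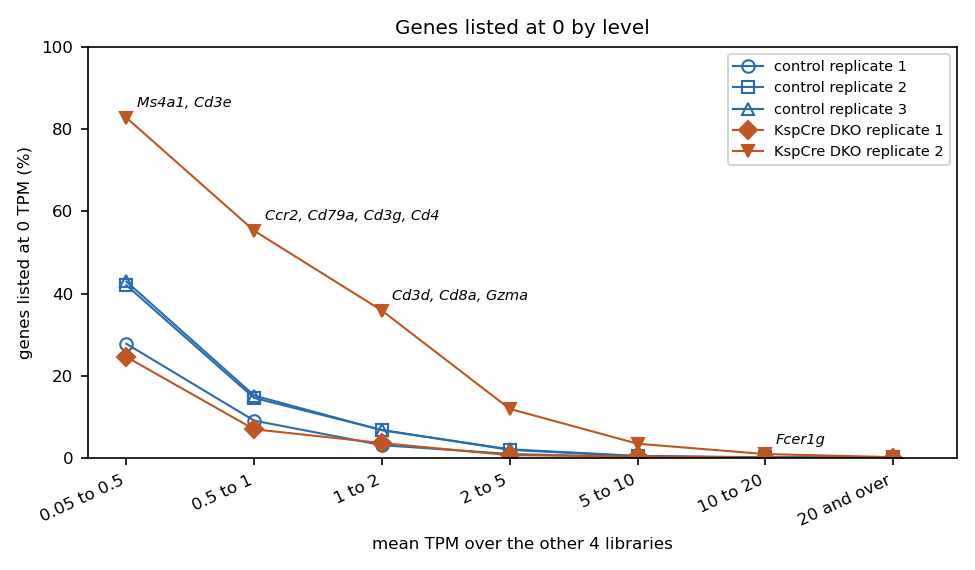
Each line gives, for 1 library, the share of all genes listed at 0 TPM (vertical axis, %) among genes grouped by their mean TPM over the other 4 libraries (horizontal axis), with the members at 0 in KspCre DKO replicate 2 named at their level. KspCre DKO replicate 2 lies above the other libraries at each level, 55.3% from 0.5 to 1 TPM, and Fcer1g is the 1 member at 0 there from a level above 2 TPM.

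Other genes of the same cell types, from textbook lists chosen with earlier results of these data known, gave no call either. Of 121 further leukocyte genes with values, 47 were tested and 0 were called by limma, and 4 lay lower and 2 higher at an unadjusted p below 0.05, near the 6.15% and 4.16% of all tested genes. The other myeloid list had 13 of 19 tested genes below 0 and 6 above, with a median of -0.32, where 61.7% of all tested genes lay below 0. Pld4, a nuclease of macrophage lysosomes, stood at 10.1, 6.58 and 5.65 TPM across the controls, against 3.85 and 1.33 TPM in KspCre DKO, without overlap (-1.29 ± 0.43, limma adjusted p = 0.343). Spi1, which encodes PU.1, stood at 2.83, 0.61 and 2.12 TPM against 1.15 and 10.4 TPM. KspCre DKO replicate 2 thus held the highest Spi1 of the 5 libraries beside the lowest Lyz2 and C1qc.

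The neutrophil genes S100a8 and S100a9 stood at 1.08, 6.65 and 3.04 TPM and at 5.86, 13.9 and 2.55 TPM in the controls. In KspCre DKO they stood at 0.98 and 0 TPM and at 2.01 and 0 TPM, and neither was called (limma adjusted p = 0.441 and 0.343). Prtn3, a granule protease of neutrophil precursors, was instead higher in both KspCre DKO libraries, with 0.20, 0 and 0.59 TPM across the controls against 1.04 and 9.48 TPM, without overlap (1.90 ± 0.68, limma adjusted p = 0.388). Lyz2 is also a neutrophil gene, and the share of neutrophils in its difference was not tested. The 15 other B cell genes with values summed to 7.03 ± 2.23 TPM in the controls (SD, n = 3) and 7.38 ± 0.95 TPM in KspCre DKO (n = 2), with 8 below 0, 7 above and a median of -0.07. The 19 other T cell genes summed to 15.6 ± 8.003 against 16.4 ± 2.16 TPM, with 11 below 0, 8 above and a median of -0.06. Neither wider sum therefore showed the difference seen in the sums of the B cell and T cell members. In KspCre DKO replicate 2 each wider sum came mostly from 1 gene. Jchain gave 5.26 of 6.71 TPM in the B cell list, and Thy1 9.58 of 17.97 TPM in the T cell list. Only 2 of the 15 and 6 of the 19 genes reached a mean of 1 TPM. In KspCre DKO replicate 2, 12 genes of each list were at 0. With values that low, the lists cannot decide whether the pattern of the members extends beyond them. Trbc1 and Trbc2, the constant parts of the T cell receptor beta chain, stood at 2.31, 0.90 and 1.77 TPM against 1.12 and 0 TPM, and at 2.77, 0.09 and 0.29 TPM against 1.25 and 2.73 TPM. Lck, the kinase that starts T cell receptor signalling, stood at 2.13, 1.51 and 0.63 TPM against 2.32 and 0 TPM. The 11 genes of the natural killer list were all listed at 0 in KspCre DKO replicate 2, and 4 of them in each of control replicates 2 and 3 and KspCre DKO replicate 1.

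The ligands that draw and keep these cells were measured in the same libraries. Il34, which sustains macrophages through the receptor encoded by Csf1r, stood at 18.0, 7.36 and 22.8 TPM across the controls, against 16.1 and 13.03 TPM in KspCre DKO. Csf1, the other ligand of that receptor, stood at 10.6, 4.83 and 7.04 TPM against 7.24 and 10.5 TPM. Cx3cl1, the ligand of Cx3cr1, stood at 20.6, 13.7 and 17.0 TPM against 20.3 and 15.4 TPM, and Ccl2, a ligand of Ccr2, at 0.94, 0.50 and 0.86 TPM against 0.22 and 2.53 TPM. Each of these 4 overlapped between the groups. Ccl12, another ligand of Ccr2, stood at 5.16, 1.60 and 2.56 TPM against 0.41 and 0 TPM, without overlap and without a call (limma adjusted p = 0.285).

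Markers of other cell types also varied between these libraries, and their part in the leukocyte values was not tested. Of the lists that follow, 0 genes were called by limma, against 0.165% of all tested genes. The 7 erythroid genes with values, which mark blood in the tissue, summed to 8349, 997 and 3506 TPM across the controls, against 8522 and 9910 TPM in KspCre DKO. Control replicate 2 was the lowest of the 5 libraries in red cell RNA, and the lowest of the 3 controls for 19 leukocyte members, though the lowest of all 5 libraries for 3. Over the 14 fibroblast genes the median difference was -0.83, with 13 below 0. Over the 12 endothelial genes it was -0.14, with 10 below 0. All tested genes also had a median of -0.14, with 61.7% below 0. The 8 genes of the thick ascending limb all lay below 0, with a median of -1.31. The 9 collecting duct genes had a median of 0.90, with 6 above 0 and 3 below.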

How the data were processed

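The deposited values are TPM per gene for 5 RNA libraries of whole kidney, which the authors obtained from poly(A)-selected RNA prepared with the TruSeq kit, per the labels' protocols. Tools listed for the series, per the submitters' processing notes, are RSEM 1.3.1, STAR 2.2.1, Trim Galore 0.5.0 and Bismark 0.19.1, with build mm10; the role of each is not given. TPM sum to a fixed total in each library and keep no depth, so no counting error can be given, and a change in abundant genes moves all others. Groups were taken from the titles.

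Of 54146 identifiers 96.9% were paired with a symbol. Positions and promoter windows come from RefSeq for GRCm38.p6, matched by symbol. Genes averaging 1 TPM or more were tested on log2(TPM + 1) with limma 3.58.1 (R 4.3.3), with an intensity trend, two-sided, KspCre DKO minus control, with Benjamini-Hochberg adjustment over all tested genes. Fold changes on this scale understate those of low genes. The procedure was tested on simulated data. Sums and ratios use TPM as deposited.

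The members and all lists were chosen with earlier results of these data known. All members are named, with up to 3 genes of smallest p from each other list and a set of defining genes, not every one of which is reported here. Scn4a, Smarcd2, Tcam1, Gh, Lyz1, Thy1 and the antibody and T cell receptor values of the closing observations were chosen after values were seen, as were the 2 motifs. Alternatives were 2 other pseudocounts, 2 other filters, 3 scalings, empirical Bayes without trend, the replicate number as a block, and omission of each library in turn.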

Additional observations from a re-analysis of the deposited data

How the results depend on the processing

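No setting other than leaving out KspCre DKO replicate 1 called a member. That setting left 1 KspCre DKO library, assumed to vary like the controls, and called 560 genes, 470 of them lower (3.39% of 13849), among them Fcer1g (-4.02, limma adjusted p = 0.0366) and Trac (-2.01, limma adjusted p = 0.0442). The number of members called with 1 library left out therefore ranged from 0 to 2, and the number of genes called from 6 to 560. Against 23 genes, 14 were called with a pseudocount of 0.1, 39 with 5, 4 without the filter, 37 rescaled without mitochondrially encoded genes, 42 after quantile normalization, 9 without trend and 75 with the replicate block. Whether the numbers pair the libraries is not stated; same-numbered libraries had correlated deviations of 0.09 and 0.03. With 1 library left out, the myeloid median stayed between -0.72 and -0.21, and the lymphoid median between -0.67 and -0.13; the latter was -1.15 with a pseudocount of 0.1. The median of all tested genes moved from -0.14 to -0.02 after quantile normalization, to 0.13 without KspCre DKO replicate 2 and to -0.39 without KspCre DKO replicate 1, with 10 and 8 of 13 myeloid members below 0. Of 249 values of the 19 tested members under alternatives, 16 changed sign, in 8 members, none of them called. Under the replicate block Coro1a was -0.0695, Cd68 0.0004 and Nkg7 -0.037, and after quantile normalization Cx3cr1 was 0.0639. With 1 library left out, Coro1a ranged from -0.81 to 1.02, Cd68 from -0.29 to 0.0004 and Tyrobp from -0.84 to 0.0217. Aif1 ranged from -0.72 to 0.44, Mrc1 from -0.91 to 0.0138 and Ighm from -0.0378 to 0.92. Nkg7 ranged from -0.24 to 1.02, but fell below the filter without control replicate 1. Among these fits with 1 library left out, Cx3cr1 passed the filter only without KspCre DKO replicate 1, at 0.0116, and without control replicate 3, at -0.34. Without Igkc and Ighm the ratio of myeloid to lymphoid TPM moved to 7.93, 8.35 and 7.24 in the controls and 4.26 and 8.77 in KspCre DKO. Without C1qb and Igkc it moved to 5.13 in control replicate 3 and to 2.82 and 3.65 in KspCre DKO. The cause of these shifts was not tested.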

Other observations

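Some antibody genes beyond the members were high in KspCre DKO replicate 2 and others were at 0. Igha, the constant part of the heavy chain of IgA, stood at 1.35, 0.19 and 0.23 TPM in the controls, 0.97 TPM in KspCre DKO replicate 1 and 9.24 TPM in KspCre DKO replicate 2. Ighg2b, of an IgG heavy chain, was listed at 0 in the other 4 libraries and stood at 7.47 TPM there, and Ighg2c stood at 0, 0, 0, 0.22 and 1.22 TPM. Jchain, which joins the units of IgA and IgM, stood at 0.39, 0.81, 0.13, 0.79 and 5.26 TPM in the same order. Of 160 kappa variable genes listed, 1 was above 0 in that library, Igkv1-117 at 9.10 TPM. The lambda constant genes Iglc1, Iglc2 and Iglc3 and all 185 heavy chain variable genes were listed at 0 there, while Iglc2 and Iglc3 stood at 1.22 and 1.41 TPM in KspCre DKO replicate 1. The B cell surface genes Cd79a and Ms4a1 were both listed at 0 in the same library. Igha (limma adjusted p = 0.501), Ighg2b (0.571) and Jchain (0.528) were not called between the groups.

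T cell receptor variable genes gave another order of the libraries for the alpha chain than Trac. The summed TPM of the 128 alpha variable genes listed was 5.59, 0 and 2.52 in the controls and 4.79 and 0 in KspCre DKO. Only 4, 0 and 2 of the 128 were above 0 in the controls, and 4 and 0 in KspCre DKO. The order of the libraries therefore rests on few, low genes. KspCre DKO replicate 1, with Trac at 2.39 TPM, below every control, therefore held a variable gene sum above those of control replicates 2 and 3. Control replicate 2, with the highest Trac of the 5 libraries, 5.83 TPM, listed all of these variable genes at 0. The 35 beta variable genes summed to 2.06, 0 and 2.22 TPM across the controls, against 0.73 and 0 TPM in KspCre DKO. For the beta chain KspCre DKO replicate 1 thus lay below control replicates 1 and 3. Here too few genes were above 0, with 3, 0 and 2 in the controls and 1 and 0 in KspCre DKO.

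Arhgdib, a gene abundant in leukocytes, had the smallest p of the further pan-leukocyte genes and ran opposite to most myeloid members. It stood at 40.4, 10.5 and 12.8 TPM across the controls, against 99.8 and 63.6 TPM in KspCre DKO, without overlap (2.11 ± 0.53, limma adjusted p = 0.219). Cytip, with the next smallest p of that list, ran the other way. Its values were 6.19, 6.87 and 9.18 TPM against 4.44 and 0.26 TPM, also without overlap (-1.67 ± 0.58, limma adjusted p = 0.373). Of the 20 further pan-leukocyte genes with values, 10 lay below 0 and 10 above, with a median of -0.04.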
